A study of Mus musculus with 2 samples.

Results

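The Müller glia examined here were 823 nuclei of 16867 kept nuclei (4.88%, exact binomial 95% interval 4.56 to 5.22%) in a single-nucleus spatial library of mouse retina. They were chosen by their own counts. A barcode was a member when it had at least 200 detected genes and under 10% mitochondrial unique molecular identifiers (UMIs), and when Abca8a, Crb1, Rlbp1, Glul, Slc1a3 and Aqp4 together gave at least 8 UMIs and at least 0.3% of its UMIs. It also needed at least 2 UMIs of Abca8a and Crb1 together, and at most 1 UMI of Rpe65, a pigment epithelium gene. The levels of these genes in the members are therefore a description, and so is any contrast of the members with the other nuclei.

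The series concerns mice heterozygous for the Prph2C213Y/+ allele on a C57BL/6J background, set against wild-type animals matched for age and sex. Peripherin 2 shapes the outer segment discs of photoreceptors. The spatial library, called T1, belongs to the 6 month time point, had no treatment and carries neither a genotype nor a replicate label, so no genotype is given to any nucleus here and no comparison of genotypes was made. Its nuclei came from fresh-frozen retina cut at 10 µm and placed on a SeekSpace chip, which gives a nucleus a position through spatial barcodes. With 1 library there is no replicate and no test. Levels are pooled UMIs per 1000000 UMIs of a group of nuclei (CPM), and each interval is an exact Poisson or exact binomial 95% interval that covers counting error only.

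Müller glia are the radial glia of the retina. Their nuclei lie in the inner nuclear layer, and their processes run from the outer limiting membrane, where they join photoreceptors through adherens junctions, to the inner limiting membrane at the vitreous. They take up glutamate and GABA released by neurons, convert glutamate to glutamine, carry potassium and water, and return retinoid to cones. After injury they can raise stress and acute-phase genes, a response called gliosis.

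On the chip the nuclei formed 4 separate rings of tissue, called pieces here, whereas the labels describe a single section of 1 eye. Xist, the RNA of the inactive X chromosome, was at 1184 CPM in the Müller members of piece 4 and at 42.1, 72.2 and 23.3 CPM in pieces 1 to 3. The Y-linked genes Kdm5d and Uty were at 2.97 and 20.8 CPM in the members of piece 4, and in those of pieces 1 to 3 they were between 42.7 and 48.1 CPM and between 92.3 and 98.8 CPM. Piece 4 thus stood apart from the other pieces in these genes, which goes against a single eye. The library held 17285 barcodes and 55843593 UMIs. After 328 barcodes with under 200 genes and 97 with too many mitochondrial UMIs were left out (some met both), the kept nuclei had a median of 1811 UMIs. Pieces are described separately below and are not replicates of a condition.

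The members held 4695976 UMIs, with a median of 3450 per nucleus (quartiles 2516 and 5108, range 363 to 147357). Pieces 1 to 4 gave 268, 189, 183 and 183 members. These were 6.17% (5.47 to 6.92), 4.44% (3.84 to 5.10), 4.95% (4.27 to 5.70) and 4.01% (3.46 to 4.62) of their kept nuclei. Piece 1 had the highest share, and its interval did not overlap those of pieces 2 and 4. A share of nuclei cannot tell more Müller glia from fewer nuclei of other kinds.

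The 6 genes of the rule were found together in most members. At least 5 of them had a UMI in 674 members (81.9%) and all 6 in 476 (57.8%). Glul, glutamine synthetase, was detected in 802 members (97.4%), and Abca8a, a lipid transporter, in 795 (96.6%). Slc1a3, the glutamate transporter GLAST, was detected in 728 (88.5%), Crb1, a polarity protein of the outer limiting membrane, in 702 (85.3%), Rlbp1, the retinaldehyde carrier CRALBP, in 689 (83.7%) and the water channel Aqp4 in 602 (73.1%). Cp, ceruloplasmin, is a Müller marker that the rule did not use. It was at 552 CPM (531 to 574) in the members and at 232 CPM in endothelium, the class with the next level. A further list of 17 Müller markers, also unused by the rule, summed to 6887 CPM with all 17 detected.

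**Figure D1:**
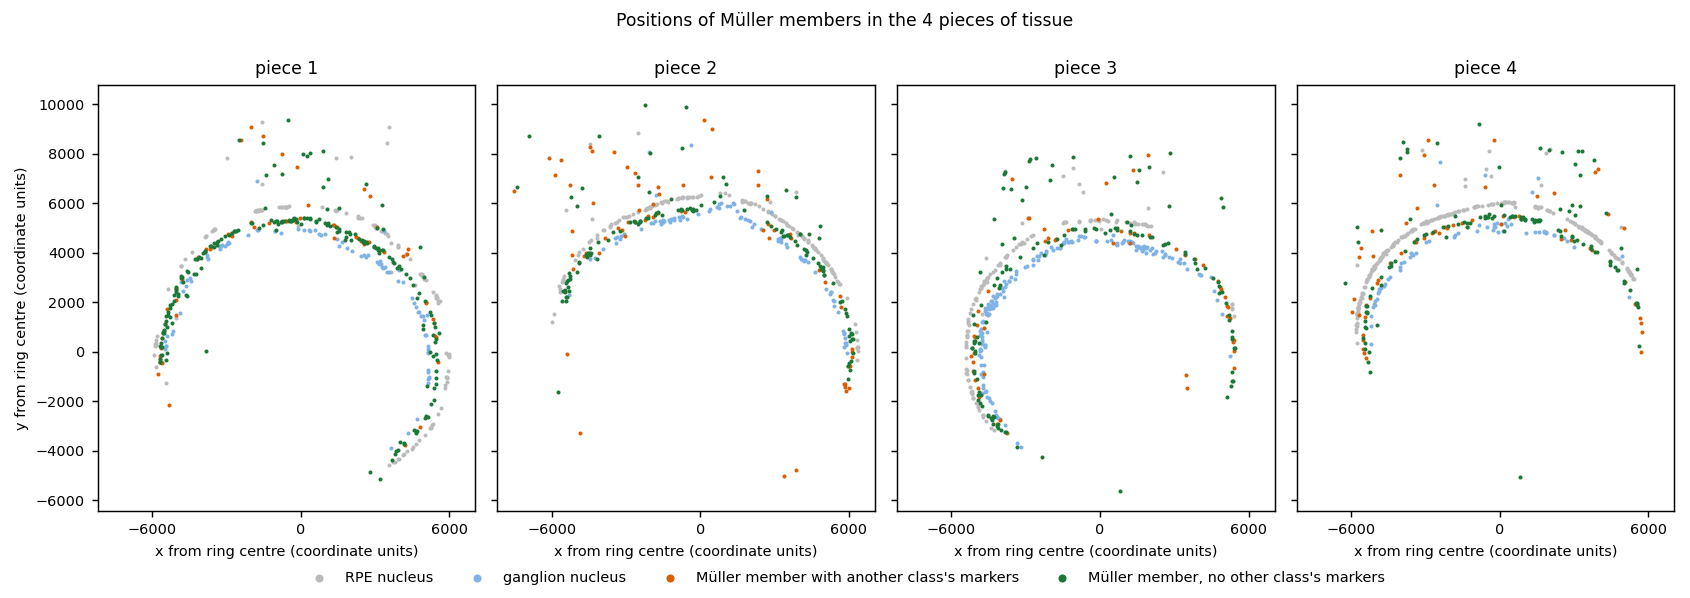
Positions of the members in the 4 pieces, in coordinate units from each ring centre, with pigment epithelium and ganglion nuclei for orientation. Most members form an arc between the pigment epithelium and the ganglion nuclei, and 145 members lie outside the pigment epithelium.

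The label held for most members and not for all of them. In 34 members Abca8a gave over 70% of the marker UMIs. These had no Crb1 UMI, a fibroblast marker sum of 7458 CPM, with Dcn at 2284 CPM and Col1a2 at 1532 CPM (both made by connective tissue), and only 968 CPM of the 17 further Müller markers. Of these 34, 31 lay outside the retina and 2 within its band. A second kind of departure was depth. The 88 members above 10000 UMIs (10.7% of members) held 43.8% of the members' UMIs and had 8604 CPM of bipolar markers, against 2241 CPM in the other 735 members. Rgs6, a Müller-rich gene described below, was at 1630.4 CPM in these 88 and at 4839 CPM in the rest.

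For this reason many values are given both for all 823 members and for a subset of 581, chosen after the data were seen. Levels of the gene lists, and of the sides by piece, are mostly given for all 823 alone. Levels can differ between these sets in either direction, as for Cp (552 CPM in all and 791 CPM in the 581) and A2m (90.3 and 79.7 CPM). In the 581 no other class's marker list reached 2 times its mean share over kept nuclei with at least 4 UMIs and 2 markers. They are called members without another class's markers for short, but such UMIs remained. Trpm1 of the bipolar list was detected in 24.1% of them. The lists set the subset, so the level of a listed marker in it is a description. The 581 numbered 206, 125, 127 and 123 in pieces 1 to 4, with 2157545 UMIs. In the 581 the bipolar sum was 1375 CPM, against 5026 CPM in all members and 23374 CPM in bipolar nuclei. The fibroblast sum was 32.9 CPM against 184 CPM, the melanocyte sum 25.0 CPM against 78.2 CPM, the amacrine sum 141 CPM against 384 CPM and the microglia sum 12.5 CPM against 21.5 CPM. The rod sum was 883 CPM against 681 CPM, where rods themselves had 34946 CPM. Krt14 and Krt12 of the epithelial list and Pou4f2 of the ganglion list were at 0 in all members. The astrocyte sum, whose list includes Gfap, was 222 CPM against 202 CPM. The sum of the 7 Müller markers was 11233 CPM in the 581 and 8156 CPM in all members.

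Members close to the limits of the rule carried less of the Müller genes outside it. The 41 members with 8 or 9 marker UMIs had 361 CPM of Cp and 1017 CPM of Rgs6, and the 28 nuclei just outside, with 6 or 7, had 241 and 188 CPM. At the limit on share, 82 members between 0.3% and 0.4% had 273 CPM of Cp, 1384 CPM of Rgs6 and 1807 CPM of Trpm1, a channel of ON bipolar cells. The 75 nuclei between 0.2% and 0.3% had 211, 1235 and 1751 CPM. On both sides of that limit the nuclei held much bipolar RNA. A further 141 nuclei met all conditions but that on Abca8a and Crb1 and had 872 CPM of Rgs6, while 3 were refused for Rpe65.

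Genes with a far higher level in the members than in each of 13 other classes were found next. A gene was called Müller-high when its CPM in members had a lower bound at or above 2 times the highest upper bound among 13 other classes of nuclei (rod, cone, bipolar, amacrine, ganglion, horizontal, pigment epithelium, microglia, endothelium, pericyte, fibroblast, myelinating glia and melanocyte) and it had at least 20 UMIs in members. Astrocytes, with 34 nuclei, were under the 50 nuclei needed and were not compared, nor were nuclei of the muscle, lens and epithelial lists. Genes shared with astrocytes can therefore be among those called. The call held for 66 of 12616 genes (0.523%). The rule's own genes account for 5 of them, all but Rlbp1, which was at 605 CPM in the members and 1894 CPM in the pigment epithelium. The other 61 come from the same nuclei that the rule selected and are descriptive as well. All 66 were also called among the 581 members without another class's markers, where the same rule called 124 of 10197 genes (1.22%). The class with the next level was horizontal for 22 genes, amacrine for 13 and bipolar for 12.

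Promoters are shown for 4 of the leading Müller-high genes that have one in the table. These genes contrast strongly between the members and other classes, and their sequences can be read for the motifs named below. Gm11906 and Gm49470, which rank among the leading genes, were not matched in that table. Each sequence is the 250 bases before the transcript start that the table uses (RefSeq, GRCm38.p6), written 5′ to 3′ on the strand of the gene. For Greb1 and Mlc1 that start lies inside the annotated gene (chr12:16670615-16801394 and chr15:88955884-88982693), so the window is within the gene. Capitals mark matches on either strand to TTGGCA (nuclear factor I), ACAAAG or ACAAT (SOX), TAATTA (LIM homeobox), TGGGAA (RBPJ) or TAATCC (CRX), and ACAAAG and ACAAT share their first 4 letters. BC055402 lies at chr1:57214997-57215246 (minus strand), Greb1 at chr12:16800887-16801136 (minus), Gpr37 at chr6:25689981-25690230 (minus) and Mlc1 at chr15:88978554-88978803 (minus).
BC055402: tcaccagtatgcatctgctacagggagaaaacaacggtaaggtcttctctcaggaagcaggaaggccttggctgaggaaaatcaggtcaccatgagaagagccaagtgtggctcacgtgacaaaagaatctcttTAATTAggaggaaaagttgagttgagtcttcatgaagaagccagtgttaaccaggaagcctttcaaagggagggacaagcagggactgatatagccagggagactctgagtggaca
Greb1: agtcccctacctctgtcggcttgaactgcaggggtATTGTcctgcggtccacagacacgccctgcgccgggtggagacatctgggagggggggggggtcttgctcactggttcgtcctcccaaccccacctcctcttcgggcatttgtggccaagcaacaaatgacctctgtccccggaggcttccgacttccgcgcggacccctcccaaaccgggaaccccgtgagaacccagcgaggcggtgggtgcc
Gpr37: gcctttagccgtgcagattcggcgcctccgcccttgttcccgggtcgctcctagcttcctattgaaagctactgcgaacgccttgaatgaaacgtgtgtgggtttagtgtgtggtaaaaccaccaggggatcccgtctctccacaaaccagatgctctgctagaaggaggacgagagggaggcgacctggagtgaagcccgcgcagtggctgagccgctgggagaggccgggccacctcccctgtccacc
Mlc1: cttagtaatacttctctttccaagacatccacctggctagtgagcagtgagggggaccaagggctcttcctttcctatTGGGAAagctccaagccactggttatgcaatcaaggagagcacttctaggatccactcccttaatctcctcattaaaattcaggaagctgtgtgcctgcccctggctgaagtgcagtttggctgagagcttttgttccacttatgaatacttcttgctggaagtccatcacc

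BC055402 holds 1 TAATTA and Mlc1 1 TGGGAA. Greb1 holds 1 ACAAT, read as ATTGT on the printed strand, and Gpr37 holds none of the 6 motifs. Lrrc66, whose promoter was searched as well but is not shown, also held none of them. Among 49 Müller-high genes outside the rule with a promoter in the table, TTGGCA was present in 20.4%, ACAAAG in 14.3%, ACAAT in 20.4%, TAATTA in 4.08%, TGGGAA in 18.4% and TAATCC in 4.08%. The shares in all 27025 promoters were 12.5%, 16.5%, 28.3%, 4.90%, 21.5% and 6.38%. TTGGCA was the motif with a higher share among the 49, where it was in 10 promoters, and the other 5 had lower shares. A match is a run of letters and not a site of binding.

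The noncoding RNA BC055402 headed the order. BC055402 (lncRNA, chr1:57200645-57214996) was at 194 CPM (181 to 207) in the members, was detected in 47.5% of them, and was at 4.94 CPM in bipolar nuclei, the next class, a ratio of 39.2. In the 581 members its level was 285 CPM. Gm11906 followed with 348 CPM (539.97 CPM in the 581) and 21.6 CPM in bipolar nuclei, and Gm49470 had 219.8 CPM against 15.5 CPM in horizontal nuclei. Gm11906 and Gm49470 had ratios of 16.1 and 14.2 to the next class.

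Among coding genes, Gpr37, an orphan receptor, was at 565 CPM (544 to 587) and was detected in 82.6% of members. It was detected in 16.8% of amacrine nuclei and 0.346% of rods, whose median depths were 4853 and 1065 UMIs against 3450 UMIs in the members. Greb1 was at 374 CPM (356 to 391) against 28.0 CPM in horizontal nuclei. Mlc1, a membrane protein of astrocytes and Müller glia that is mutated in a leukodystrophy, was at 204 CPM against 15.5 CPM. The collagen genes Col2a1 and Col9a1, whose products are found in the vitreous, were at 471 CPM (451 to 491) and 244 CPM. Their next classes were horizontal at 48.1 CPM and melanocyte at 25.1 CPM. Rgs6, a regulator of G-protein signalling, had 3434 CPM (3381 to 3488) in members and 711 CPM in ganglion nuclei, and was detected in 90.2% of members, 25.2% of amacrine nuclei and 2.74% of rods. Of the 20 named Müller-high genes it had the smallest ratio to the next class, 4.83.

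The remaining named genes fell into a few kinds of product. Acsl3, which activates long-chain fatty acids, was at 807 CPM (782 to 833) against 109 CPM in horizontal nuclei and Slc13a5, a citrate transporter, was 12.2 times as high as in horizontal nuclei, at 7.76 CPM there. Espn, an actin-bundling protein, was at 257 CPM against 24.3 CPM in microglia. Folh1, a carboxypeptidase that releases glutamate, was at 156 CPM against 17.1 CPM. Tmem132b had 321 CPM against 35.9 CPM in amacrine nuclei, and Utp14b had 264 CPM against 37.3 CPM. The annotated span of Utp14b (chr1:78657825-78667601) lies within that of Acsl3 (chr1:78657825-78707743). Reads of the shared stretch could have been assigned to either, so the calls of Utp14b and Acsl3 may not be separate. Lrrc66, Spc25, Shisal2b and Col22a1 lay between 53.5 and 122 CPM, with ratios of 16.8, 8.76, 17.7 and 9.97. Gcnt4 was at 71.3 CPM and had 2 UMIs in its next class, too few for a ratio. All 20 were called among the 581 members, where each level was higher than in all 823.

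**Figure D2:**
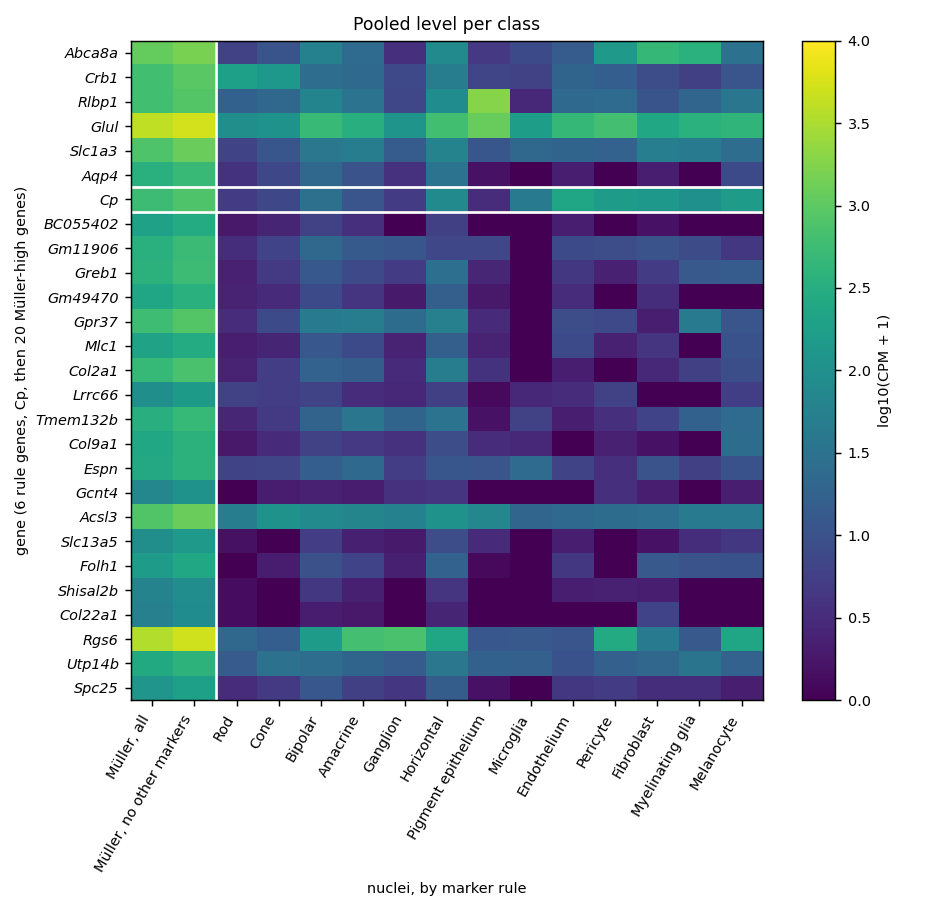
Heat map of pooled levels, as log10(CPM + 1), of the 6 rule genes, Cp and the 20 named Müller-high genes (rows). Columns are all members, the 581 members under the limit on other classes' markers and 13 other classes of nuclei. The 20 genes are brighter in both Müller columns than in any other column, while Rlbp1 is brightest in the pigment epithelium.

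Müller functions were read through lists of genes. Each count of Müller-high genes stands beside 66 of 12616 for all genes, and each median is of the log2 ratio of members to the other kept nuclei, beside a median of -0.01 for all genes, of which 1235 were over 2-fold higher and 1032 over 2-fold lower. Of 10 genes of transmitter uptake and recycling, 2 were Müller-high (Slc1a3 and Glul, both rule genes), the median was 1.21 and 6 were over 2-fold higher. Slc6a11, the GABA transporter GAT3, was at 741 CPM (717 to 766) against 422 CPM in amacrine nuclei. Slc1a2, a glutamate transporter shared with cones, was at 827 CPM against 1928 CPM in cones. Slc38a3, which exports glutamine, had 669 CPM against 725 CPM in cones. Slc6a13, the GABA transporter GAT2, had 12.1 CPM in members, 2.32 CPM in the 581 and 445 CPM in the pigment epithelium.

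For potassium and water, 9 of 11 genes were measured, the median was 0.60 and 3 were over 2-fold higher, with Aqp4 alone Müller-high. Kcnj10, the potassium channel Kir4.1, was at 208 CPM (195 to 221), 26.0 times its level in the other kept nuclei, with 80.8 CPM (56.0 to 113) in myelinating glia. Dmd, dystrophin, which anchors these channels at the membrane, was at 600.3 CPM against 4075 CPM in rods, and its partner Dtna was at 491 CPM against 356 CPM in melanocytes. The 5 acid-base genes had a median of -0.09. Car2, a cytosolic carbonic anhydrase, was at 231 CPM against 168 CPM in amacrine nuclei, and Car14, a membrane form, was at 209 CPM against 892 CPM in the pigment epithelium. The retinoid list, with 9 of 14 measured, had a median of -0.28. Rdh10, a retinol dehydrogenase, was at 89.4 CPM against 1168 CPM in the pigment epithelium.

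Transcription factors of glia and progenitors were the list with the highest median, 1.48, with 15 of 19 measured genes over 2-fold higher and none over 2-fold lower. Hes5, a Notch target, was the 1 Müller-high member, at 33.0 CPM, with 3 UMIs in its next class. Sox8 was at 114 CPM (26.4 times the other kept nuclei) against 52.3 CPM in myelinating glia, and Sox2 was at 53.0 CPM (11.2 times) against 11.9 CPM. Lhx2, which maintains Müller identity, was at 207 CPM against 120.5 CPM in the pigment epithelium. Other factors were shared with neurons or epithelium: Pax6 was at 468 CPM against 628 CPM in amacrine nuclei, and Sox9 at 189.7 CPM against 351 CPM in the pigment epithelium. Nfia was at 1028 CPM against 1486 CPM in fibroblasts. Of the Notch pathway 12 of 13 genes were measured, with a median of 1.04. The receptors Notch1 and Notch2 were at 421 and 470 CPM, and Notch1 was at 628 CPM in endothelium. The target Hes1 was at 82.4 CPM, against 68.1 CPM in endothelium. The cell cycle list had 4 of 10 genes measured, a median of 0.10 and no called gene, with the inhibitor Cdkn1b at 96.9 CPM.

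For the apical junction, 2 of 11 genes were Müller-high, namely Crb1 of the rule and Cdh2, N-cadherin, at 1231 CPM against 442 CPM in bipolar nuclei. The median was 0.31. Tjp1, the scaffold ZO-1, was at 423 CPM against 984 CPM in rods. The basement membrane list had the lowest median, -0.39, with 7 of 18 genes over 2-fold lower, and its 2 Müller-high genes were Col2a1 and Col9a1. Nid1, nidogen, was at 37.5 CPM in all members, at 5.56 CPM in the 581 and at 872 CPM in fibroblasts. Its level in all members moved with the fibroblast markers given above, whose part was not tested.

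Among secreted factors, 7 of 16 measured genes were over 2-fold higher, with a median of 0.55 and none Müller-high. Dkk3, a secreted Wnt modulator, was at 1801 CPM against 1189.5 CPM in melanocytes, and Ptn, a neurotrophic growth factor, was at 236 CPM against 101 CPM in endothelium. Vegfa, the endothelial growth factor, was at 220.4 CPM against 492 CPM in the pigment epithelium. The lipid list had a median of 0.85, with 6 of 15 measured genes over 2-fold higher and Abca8a and Acsl3 Müller-high. Apoe and Clu, the main apolipoproteins of the retina, were at 688 and 1245 CPM, below the 1575 and 3579 CPM of the pigment epithelium. The engulfment list had a median of 1.07 and 5 of 9 genes over 2-fold higher. Megf10, a phagocytic receptor, was at 294 CPM, 19.3 times the other kept nuclei, against 121 CPM in horizontal nuclei, and Mertk was at 178 CPM against 812 CPM in microglia. Glycolysis genes had a median of -0.36 and serine synthesis genes one of 0.36, with 3 of 16 and 2 of 5 over 2-fold higher. In the serine list Psat1 was at 35.3 CPM, and Phgdh, the first enzyme of the route, was at 10.2 CPM against 275 CPM in the pigment epithelium.

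By position the members lay at the depth of the inner nuclear layer, between rods and amacrine nuclei. Depth was measured inward from the local pigment epithelium, in coordinate units of unstated length, at the angles that pigment epithelium nuclei covered. Of 711 members at such angles, 565 (79.5%) were in the retinal band, 145 lay outside and 1 lay deeper. The share in the band was lower for rods (66.9%), bipolar nuclei (68.3%) and cones (74.0%). It was higher for horizontal (80.6%), amacrine (90.8%) and ganglion nuclei (96.0%). The median depth of band members was 409.96 units, and 492, 324, 319.8 and 466 units in pieces 1 to 4. Within each piece this was deeper than rods (242, 91.8, 132 and 169 units) and shallower than amacrine nuclei (616, 421, 435 and 558 units) and ganglion nuclei (793, 616, 728 and 799 units). Bipolar nuclei were at 417, 296, 304 and 438 units, shallower than members in each piece but close to them. Horizontal nuclei were at 473, 267, 272 and 434 units, also shallower than members.

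**Figure D3:**
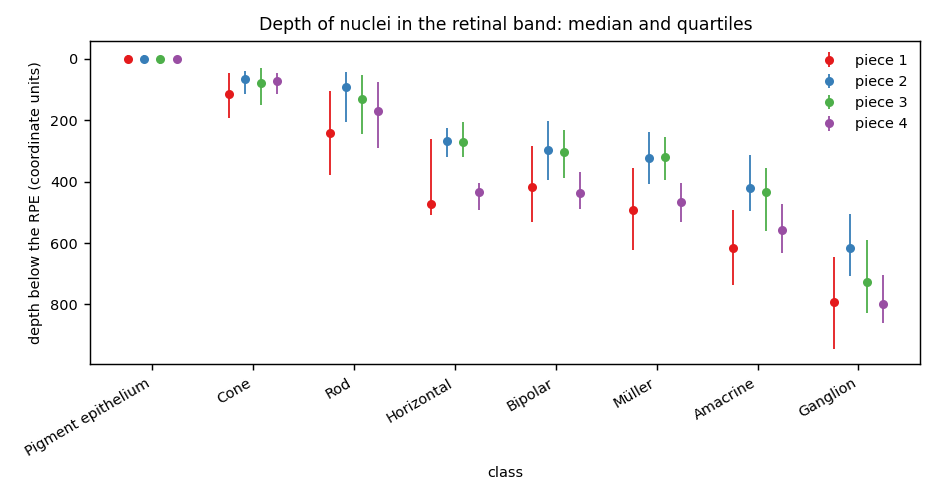
Depth below the pigment epithelium (coordinate units) of Müller members and neuron classes in pieces 1 to 4, as medians (points) and quartiles (bars), with the inner retina downward. In each piece the Müller median lies between the rod and the amacrine medians, close to the bipolar median.

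The nuclei around the members held more of the inner nuclear layer classes than the library as a whole. Among the 20 nearest kept nuclei of a member, other members were 2.27 times as frequent as among all kept nuclei (2.21, 2.32, 1.73 and 2.65 in pieces 1 to 4), amacrine nuclei 2.02 times, bipolar nuclei 1.90 times and horizontal nuclei 2.14 times. Rods were less frequent, at 0.702 times (0.590, 0.686, 0.842 and 0.777), as were ganglion nuclei at 0.524, cones at 0.473 and pigment epithelium nuclei at 0.261 times. A band member had its nearest band member at a median of 69.3, 89.6, 102 and 79.9 units in pieces 1 to 4.

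The 4 pieces were then set side by side for each gene in the members. A gene was called piece-variable when its highest piece had a lower bound at or above 2 times the upper bound in its lowest piece, with at least 20 UMIs. The labels give the pieces no group, so this is a difference between pieces of tissue and nothing more. The call was met by 125 of 12616 genes (0.991%). Of these, 49 were highest in piece 2, 44 in piece 4, 20 in piece 3 and 12 in piece 1. Markers of other classes moved along: 18 of the 125 are such markers, and the fibroblast sum in members was 90.1, 402, 72.2 and 257 CPM in pieces 1 to 4. The microglia sum was 7.34, 60.5, 12.0 and 17.8 CPM, and the bipolar sum was 5634, 3289.7, 4834 and 5984 CPM. The part of these markers in each call was not tested.

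Fewer of the calls were met in subsets of the members. Among the 581 members, which hold 2157545 of the 4695976 UMIs, the rule called 45 of 10197 genes (0.441%), and 17 of the 125 were among them. Without the nucleus richest in the gene, 68 of the 125 were still called, and in the band members 44, where the rule called 88 of 11605 genes (0.758%). In band members without another class's markers it called 66 of 9159 (0.721%). Of the leading 10 by ratio (Prg4, Xist, Muc4, F13a1, Slc26a4, Apod, Gm20757, Gpx3, Mrc1 and Tspan11), Xist alone was called in the 581. A single nucleus gave 132 of 203 Muc4 UMIs and 54 of 60 Slc26a4 UMIs. By contrast, 11 genes were called in the 581 members, in the band members and without their richest nucleus: Xist, Prss56, Cyp26b1, C4b, Grik3, A2m, Hs6st3, Adamts19, Gm29683, Esr1 and Aldh1a1. They were singled out after their values were seen.

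C4b, complement component 4, was high in pieces 2 and 3 and low in pieces 1 and 4. Its levels in pieces 1 to 4 were 53.4 CPM (42.3 to 66.5), 339.6 CPM (303 to 379), 307 CPM (277 to 339) and 78.3 CPM (62.0 to 97.6). In the 581 members they were 59.4, 443, 363 and 83.0 CPM, and in band members 30.9, 345, 325 and 24.6 CPM. Pieces 2 and 3 were well above the other pieces in each reading. Over all pieces C4b was at 184 CPM (172 to 196) in the members and higher in myelinating glia (464 CPM), microglia (409 CPM), melanocytes (328 CPM) and fibroblasts (238 CPM). In the 6 neuron classes and the pigment epithelium it was lower, at up to 36.4 CPM. By piece, amacrine nuclei had 3.97, 7.85, 5.62 and 1.42 CPM, bipolar nuclei 0.854, 16.5, 22.0 and 4.43 CPM, and pigment epithelium nuclei 2.37, 49.2, 88.2 and 4.99 CPM. The near-identical gene C4a had 6 UMIs in the members, and reads shared by the pair could have been assigned to either. C4b lies at chr17:34728139-34743902 (GRCm38.p6).

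Grik3, a kainate receptor subunit (chr4:125490259-125714173), had the same order, with 60.7, 359, 237 and 98.2 CPM in pieces 1 to 4 and 81.5, 507, 317 and 184 CPM in the 581. In amacrine nuclei it was at 93.4, 75.0, 91.4 and 112 CPM, a narrower range with no such order. A2m, the protease inhibitor alpha-2-macroglobulin, was at 43.4, 175, 133 and 27.8 CPM, and at 33.2, 110.2, 149 and 30.2 CPM in the 581. The pigment epithelium, where A2m was far higher, had 329, 1028, 1492 and 429 CPM, also higher in pieces 2 and 3.

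The gliosis and acute-phase list had 20 of 23 genes measured, no Müller-high gene, a median log2 ratio of 0.46 and 5 piece-variable genes, beside 0.991% of all genes: C4b, A2m, Gfap, Serpina3n and C3. Of these, C4b and A2m were called in the 581 members and the other 3 were not. Gfap, the intermediate filament of reactive glia, was at 6.68, 52.0, 58.5 and 17.8 CPM in pieces 1 to 4. In the 581 members it had 23 UMIs in all, at 2.76, 17.0, 19.5 and 5.03 CPM. The other 242 members held 127 Gfap UMIs. Gfap is on the astrocyte list that set the 581, so its level and its missing call there are not independent of that choice. Serpina3n, a protease inhibitor, was highest in piece 2 and at 16.7, 48.1 and 38.7 CPM in pieces 1, 3 and 4, and at 18.0, 36.0, 56.7 and 12.6 CPM in the 581. C3, complement component 3, was at 19.4, 28.7, 4.81 and 62.5 CPM. C3 was at 5.53, 0, 10.6 and 5.03 CPM in the 581, so its high level in piece 4 was not found there. Stat3, a mediator of the response, was at 116, 224, 199.7 and 109 CPM (127, 233, 216 and 128 CPM in the 581), again with pieces 2 and 3 above the others, though not called. Vim, vimentin, was at 111, 131, 143 and 139.8 CPM, Cp at 565, 619.7, 547 and 478 CPM and Cd44, a hyaluronan receptor, at 104, 189.95, 141 and 113 CPM. Of the rule's own genes, whose levels the selection partly sets, Glul was at 4226, 4094, 3695 and 4576 CPM, and Slc1a3 at 820.4, 882, 794 and 658 CPM.

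Other genes of the 11 were highest in piece 1 or in piece 4. Prss56, a serine protease made by Müller glia, was at 96.8 CPM in piece 1 and at 18.0, 12.0 and 7.93 CPM in pieces 2 to 4 (138, 33.9, 21.3 and 17.6 CPM in the 581). Cyp26b1, which breaks down retinoic acid, was at 63.4 CPM in piece 1 and between 4.81 and 7.43 CPM elsewhere. Adamts19, a metalloprotease, was at 54.1, 7.43, 9.62 and 11.9 CPM. Without piece 1 none of Prss56, Cyp26b1 and Adamts19 was called, and neither were Gm29683 and Aldh1a1. In piece 4, Hs6st3, a heparan sulfate sulfotransferase, was at 399 CPM against 131, 94.4 and 172 CPM in pieces 1 to 3, and Esr1, estrogen receptor alpha, was at 36.7 CPM against 22.0, 10.6 and 4.81 CPM. In the 581 members Hs6st3 was lower, at 26.2, 31.8, 92.2 and 194 CPM in pieces 1 to 4, and Esr1 was at 1.38, 6.36, 3.54 and 42.7 CPM. Hs6st3, Esr1 and Xist were not called without piece 4, and Esr1 and Aldh1a1 were not called without piece 3. Hs6st3 was higher in amacrine nuclei, at 881, 853, 763 and 941 CPM. C4b, Grik3 and A2m remained called whichever piece was left out.

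**Figure D4:**
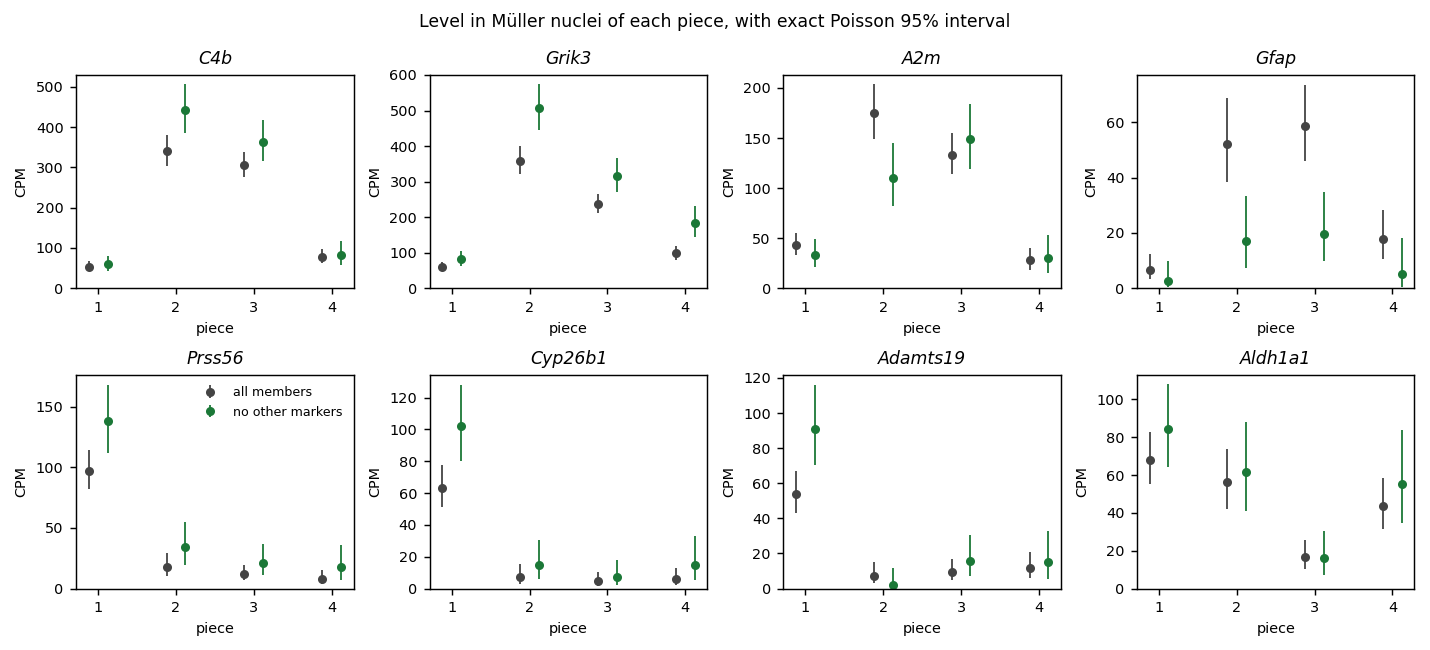
Level in CPM with 95% Poisson intervals in pieces 1 to 4, for all members and for the 581 members under the limit on other classes' markers. C4b, Grik3, A2m and Gfap are highest in pieces 2 and 3, and Prss56, Cyp26b1 and Adamts19 in piece 1.

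Each piece was divided at its ring centre into a ventral and a dorsal side, the ventral side being that where cones had the larger share of the short-wavelength opsin Opn1sw among cone opsin UMIs. These shares were 49.9, 64.6, 55.1 and 48.6% on the ventral sides of pieces 1 to 4 and 30.9, 23.9, 25.3 and 20.3% on the dorsal sides. The sides held 418 ventral and 405 dorsal members. With levels pooled over pieces, 7 genes (0.0555%) were ventral-high and 25 (0.198%) dorsal-high, again with a ratio of at least 2 between bounds. Among the 581 members 6 genes (0.0588%) and 8 genes (0.0785%) were called, and among band members 13 in either direction (0.112%). In band members without another class's markers 8 were called in either direction (0.0873%). Of the 7 ventral-high genes, 3 were also called in the 581 (Vax2, Vax2os and Slit2). Opn1sw, the gene whose share in cones set the ventral side, was another of the 7. A single nucleus gave 35 of 37 F13a1 UMIs and another 25 of 26 Mrc1 UMIs. Prg4 and Mrc1 had this direction in 1 of 4 pieces. Of the 25 dorsal-high genes, 7 were also called in the 581, namely 6 genes described below and Scd1, of whose 154 UMIs 109 came from 1 nucleus. The 7 did not include the pigment genes Dct, Tyrp1, Mlana and Gpnmb or the lens genes Mip and Bfsp1. Dct, Tyrp1, Mlana and Bfsp1 are on the melanocyte and lens lists that set the 581. The absence of these listed genes is therefore not independent of that choice. The melanocyte marker sum was 124 CPM in dorsal and 36.9 CPM in ventral members, and the fibroblast sum 227 and 145 CPM. Their part in the calls was not tested.

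A set of 8 genes was called in the 581, in the band and without the richest nucleus, with the same direction in 4 of 4 pieces. They were singled out after their values were seen. Vax2 and Vax2os were ventral-high, and Gm29683, Tbx5, Cyp26b1, Efnb2, B130024G19Rik and Nr2f2 dorsal-high. Of these, 3 are neighbours on chromosome 7: Gm29683 (lncRNA, chr7:70178868-70337852), Nr2f2 (chr7:70351946-70366746) and B130024G19Rik (lncRNA, chr7:70365383-70411146). Their promoters are shown because these 3 genes lie side by side and were higher on the same side. Capitals mark TAATCC (CRX) and GGTGTGA (T-box) on either strand, besides the 5 motifs above, which were not found. As above, a start in the promoter table can lie inside the annotated gene, and the Gm29683 window overlaps the 5′ end of its gene. The windows are chr7:70366747-70366996 (minus) for Nr2f2, chr7:70337823-70338072 (minus) for Gm29683 and chr7:70365133-70365382 (plus) for B130024G19Rik.
Nr2f2: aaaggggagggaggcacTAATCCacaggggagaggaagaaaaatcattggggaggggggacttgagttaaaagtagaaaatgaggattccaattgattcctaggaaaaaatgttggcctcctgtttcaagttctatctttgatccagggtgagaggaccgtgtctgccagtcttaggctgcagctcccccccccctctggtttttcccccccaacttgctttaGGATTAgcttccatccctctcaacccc
Gm29683: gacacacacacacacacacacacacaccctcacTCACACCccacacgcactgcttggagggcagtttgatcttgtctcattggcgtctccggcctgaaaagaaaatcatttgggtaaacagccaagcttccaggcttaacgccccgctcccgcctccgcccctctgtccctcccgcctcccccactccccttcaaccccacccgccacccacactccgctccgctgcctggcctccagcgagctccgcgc
B130024G19Rik: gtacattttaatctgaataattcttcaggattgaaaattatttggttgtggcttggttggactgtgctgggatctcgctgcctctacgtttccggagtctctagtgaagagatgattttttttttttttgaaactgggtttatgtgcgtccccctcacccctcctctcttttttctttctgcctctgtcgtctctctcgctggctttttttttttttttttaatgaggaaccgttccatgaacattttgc

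Nr2f2 holds TAATCC on both strands, read once as GGATTA, and Gm29683 holds GGTGTGA read as TCACACC. B130024G19Rik held none of the motifs, nor did the searched promoters of Efnb2, Vax2os, Cyp26b1 and Slit2, which are not shown. All 27025 promoters held TAATCC in 6.38% and GGTGTGA in 3.31% of cases. The annotations of Nr2f2 and B130024G19Rik overlap on opposite strands, and since the sources used here do not say how the counting treated strand, reads of the shared stretch cannot be told apart. The same holds for Vax2 (chr6:83711239-83738313) and Vax2os (chr6:83692804-83712201).

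Vax2, a homeobox factor of the ventral retina, was at 64.0, 76.4, 61.6 and 66.7 CPM in ventral members of pieces 1 to 4 and at 8.96, 10.3, 4.22 and 13.7 CPM in dorsal members. Each ventral value was above each dorsal value. Pooled, it was at 66.5 CPM (56.7 to 77.5) against 8.52 CPM (5.13 to 13.3). Its antisense neighbour Vax2os was at 76.0, 54.6, 82.1 and 45.0 CPM against 16.4, 6.20, 1.41 and 24.7 CPM. The same direction was present in other classes: Vax2 was at 59.9 and 8.93 CPM in ventral and dorsal amacrine nuclei, 85.9 and 20.6 CPM in bipolar nuclei and 134 and 46.9 CPM in rods.

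Tbx5, a T-box factor of the dorsal retina, was at 76.2, 28.9, 16.9 and 24.7 CPM in dorsal and at 3.62, 0, 3.73 and 4.65 CPM in ventral members. Pooled, this was 38.6 CPM (30.9 to 47.6) against 3.24 CPM (1.40 to 6.39). Its dorsal and ventral levels were 68.4 and 3.44 CPM in amacrine nuclei, 22.2 and 4.49 CPM in bipolar nuclei and 50.1 and 2.91 CPM in the pigment epithelium. Efnb2, the ligand ephrin-B2 used in guiding retinal axons, was at 159.8, 66.1, 53.4 and 68.7 CPM in dorsal and at 16.9, 19.6, 31.7 and 17.1 CPM in ventral members, with no overlap. In amacrine nuclei it was at 135 and 30.5 CPM.

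Nr2f2, the nuclear receptor COUP-TFII, was at 79.2, 62.0, 35.1 and 27.5 CPM in dorsal and at 12.1, 13.1, 14.9 and 17.1 CPM in ventral members. Its neighbour B130024G19Rik was at 64.2, 47.5, 21.1 and 19.2 CPM against 6.04, 13.1, 3.73 and 6.20 CPM. Dorsal values of both were above all ventral values. Gm29683, farther along the chromosome, was at 179, 136, 23.9 and 55.0 CPM in dorsal and at 19.3, 0, 13.1 and 1.55 CPM in ventral members, and pooled at 100.04 CPM (87.3 to 114) against 9.73 CPM (6.23 to 14.5). In amacrine nuclei Gm29683 was at 7.70 and 4.82 CPM and in the pigment epithelium at 16.7 and 10.4 CPM, lower than in dorsal members. Nr2f2 was at 44.0 and 25.5 CPM in dorsal and ventral amacrine nuclei.

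Cyp26b1 was at 127, 14.5, 5.62 and 13.7 CPM in dorsal and at 12.1, 0, 3.73 and 1.55 CPM in ventral members. Pooled, it was at 45.3 against 5.27 CPM, with the largest difference in piece 1. Amacrine nuclei had 1.85 and 1.03 CPM. Aldh1a1, which makes retinoic acid, was at 117, 97.1, 16.9 and 66.0 CPM in dorsal and at 29.0, 13.1, 16.8 and 31.0 CPM in ventral members and was not called. Of the 8 genes, all were called without piece 3 and without piece 4. Without piece 1, Cyp26b1, Efnb2, B130024G19Rik and Nr2f2 missed the threshold, and without piece 2, Nr2f2 did. Vax2, Vax2os, Tbx5 and Gm29683 were called whichever piece was left out.

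The dorsoventral and ephrin list had 13 of 15 genes measured, with a median log2 ratio of members to other kept nuclei of 1.01. The median over all genes was -0.01. Vax2 was its 1 ventral-high gene, beside 7 of 12616 genes (0.0555%). Tbx5, Efnb2 and Nr2f2 were its 3 dorsal-high genes, beside 25 of 12616 (0.198%). Tbx2, another T-box factor, was at 161 CPM in dorsal and 175 CPM in ventral members. Ephb2, a receptor of ephrin-B ligands, was at 242 and 286 CPM, and Efnb1 at 42.2 and 25.9 CPM. These members of the list were not called in either direction.

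**Figure D5:**
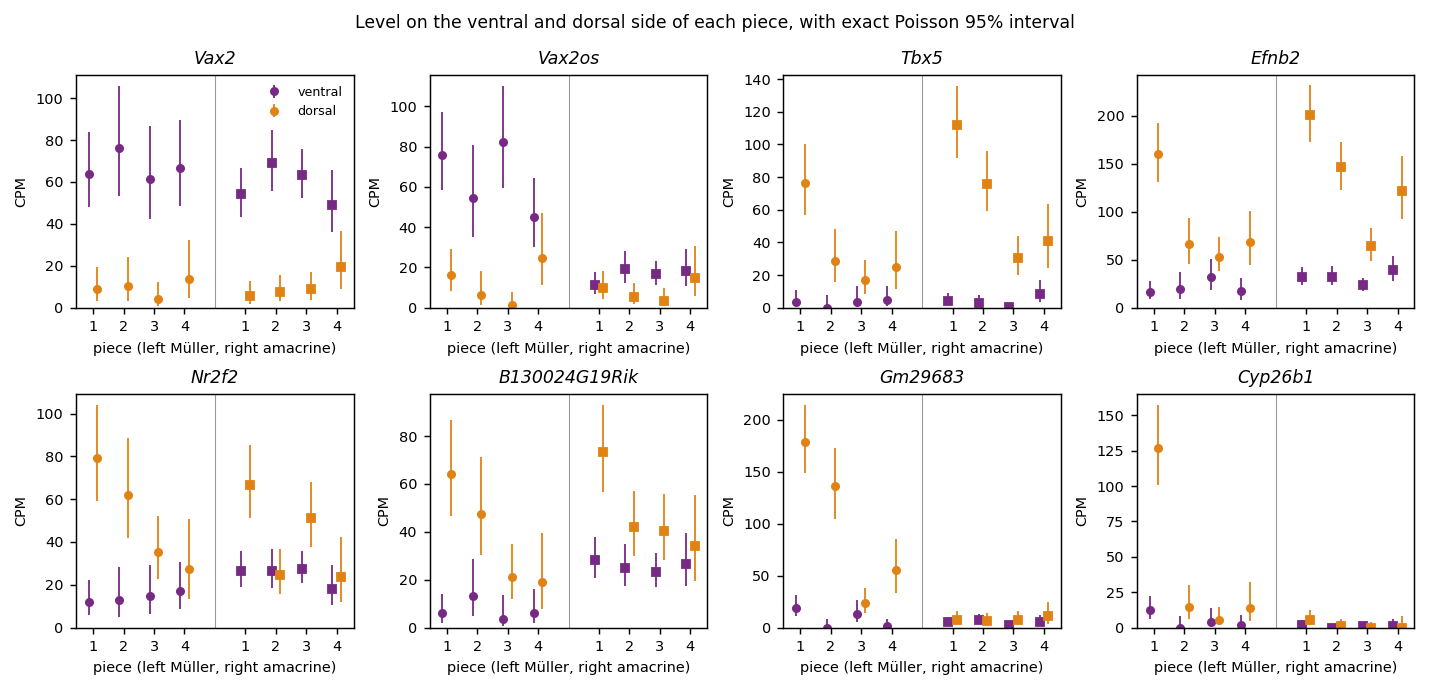
Level in CPM with 95% Poisson intervals on the ventral and dorsal side of pieces 1 to 4, for 8 genes, with Müller members at the left and amacrine nuclei at the right of each panel. In Müller members Vax2 is higher on the ventral side of each piece, and Tbx5, Efnb2 and Nr2f2 are higher on the dorsal side. Gm29683 is low on both sides in amacrine nuclei.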

How the data were processed

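The submitters deposited 1 table of UMI counts (whole-number counts per gene and barcode, 32285 features) and 1 table of chip positions for library T1, which the authors prepared with the SeekSpace nucleus workflow, per the labels' protocols. Per the submitters' processing notes, fastp, STAR, Seurat 4.1.1 and build mm10 were used; the sources used here do not give their roles or a strand setting. Both samples were unassigned to a group, so no comparison of groups and no p-value was computed.

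The members, gene lists and call rules were chosen with earlier results of these data known. Other classes came from marker lists: a nucleus needed at least 4 UMIs and 2 markers of a list, at 2 times the mean share and 2 times the next list. Pieces were found from positions (DBSCAN, 400 units), and the band ran from -100 to 1200 units from pigment epithelium nuclei within 8 degrees (at least 3). Named genes were the 7 markers, 20 Müller-high genes, up to 5 per list, and the leading 10 piece-variable and 10 ventral- or dorsal-high genes. Other genes were chosen after their values were seen, as were the 581 members. Scrublet marked 0 of 16867 nuclei and so did not work as a doublet caller; no nucleus was left out as a doublet. Simulated counts were Poisson draws for pooled groups, with no spread between nuclei and no RNA of other classes. On them the Müller-high rule called 27 of 100 genes made 4-fold higher and 69 of 100 made 8-fold higher. The piece-variable rule called 89 and 100, the ventral-high rule 87 and 100, and none called an unchanged gene. The simulation therefore does not cover calls that rest on single nuclei or on RNA of other classes. It raised genes only in the members, in piece 1 or on the ventral side. Raised genes had an expected count, over the groups compared, of at least 2 times the limit of 20 UMIs. Recovery nearer that limit, in the other pieces and on the dorsal side was not tested. By symbol, 274 of 276 named genes matched RefSeq GRCm38.p6. Python 3.11.15, scipy 1.17.1 and scanpy 1.11.5 were used. Alternatives on the rule, call threshold, depth, position and members were tried.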

Additional observations from a re-analysis of the deposited data

How the results depend on the processing

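No paired analysis was possible because the single library carries no group and no replicate number. Of 151 alternative values of 10 results, 113 stayed within the interval or 1.5 times of the value reported and 38 did not. The share of members (4.88%) was 3.23% with a minimum of 16 marker UMIs and 0.6%, 5.69% with 5 and 0.2%, 5.55% with at least 500 genes, 4.36% without members above 10000 UMIs, 3.44% in members without another class's markers, 3.66% without the members of highest neuron marker share, and 4.43 to 5.20% with a piece left out. The 66 Müller-high genes became 35 at 3 times between bounds, 132 with stricter members, 119 without members above 10000 UMIs, 124 without another class's markers, 122 without those of highest neuron marker share, and 52 to 71 with a piece left out; of the 66, 51 were still called without piece 2. The 25 dorsal-high genes became 10 at 3 times, 12 with stricter members, 6 after thinning to 1000 UMIs, 13 in the band, 8 without another class's markers and 7 without the richest member. With a piece left out they were 9 (piece 1), 13 (piece 2), 32 (piece 3) and 40 (piece 4). The 7 ventral-high genes became 4, 12, 1 and 13 under the first 4 of these settings, and 6 to 14 with a piece left out (14 without piece 1, 11 without piece 3). The 125 piece-variable genes became 51 at 3 times, 35 after thinning, 45 without another class's markers, 73 without the richest member, and 76, 83 and 72 without piece 2, 3 or 4 (89 without piece 1). Among neighbours, the members' ratio was 2.71 with 10 neighbours, the bipolar ratio 1.55 with 50, and the rod ratio 0.568 with 10 and 0.902 with 50. Median depth kept its place, at 369.9 to 449.9 units with a piece left out. The cause of these changes was not tested. Of 690 alternative levels of 46 genes, 376 lay beyond the interval of the value reported, 473 were higher and 187 lower, and 91 were over 1.5 times apart. Depth limits genes with under 20 UMIs.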

Other observations

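Flt1, a VEGF receptor best known from endothelium, was at 982 CPM in the members and was detected in 87.4% of them. In the 581 members without another class's markers it was at 1427 CPM and was detected in 91.6%. Endothelial nuclei had 3806 CPM, and amacrine nuclei had 20.8 CPM with detection in 5.29%, at a median depth of 4853 UMIs against 3450 UMIs in the members. The endothelial genes Pecam1 and Cdh5, at 1257 and 1209 CPM in endothelial nuclei, were at 14.7 and 7.88 CPM in all members. In the 581 they were at 2.78 CPM and at 0, but both, like Flt1, are on the endothelial list that set that subset. Their low values there are therefore partly fixed by the choice of the subset. The source of the Flt1 UMIs in members was not tested. Flt1 made up most of the endothelial marker sum in members, which was 1012 CPM in all and 1429.9 CPM in the 581.

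The 145 members outside the pigment epithelium include the 31 that rest on Abca8a, and the group held both Müller and fibroblast genes. A position outside the band was not particular to members: rods, bipolar nuclei and cones had lower shares in the band, as given above. Rgs6 was at 4098 CPM in them and 3439 CPM in band members, with detection in 71.0 and 94.5% of nuclei at median depths of 3040 and 3431 UMIs. Gpr37 was at 628 and 567 CPM. The fibroblast genes Dcn and Pdgfra were at 368 and 119 CPM outside and at 3.63 and 18.5 CPM in the band. What placed these members there was not tested.

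Slit2, an axon guidance ligand, was at 1071, 847, 784 and 636 CPM in ventral members of pieces 1 to 4 and at 240.5, 287, 395 and 726 CPM in dorsal members. Pooled, this was 853 against 379 CPM, and the direction held in pieces 1 to 3 and turned in piece 4. In the 581 members it was at 469.7 against 148 CPM. The call was not met in band members or without the richest nucleus. In bipolar nuclei, where Slit2 was higher, it was at 1679 CPM in ventral and 1469 CPM in dorsal nuclei.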
